A study of Mus musculus with 6 samples.

Results

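The complement system is a set of blood proteins that cleave and activate each other on a target surface. Antibody-bound C1q starts the classical pathway, sugar-binding lectins start the lectin pathway, and C3 that activates by itself is amplified in the alternative pathway. All routes meet at C3 convertases, which coat the target with C3 fragments, release the anaphylatoxin peptides and lead to the terminal pore of C5 to C9. The liver is the main source of most of these plasma proteins, through hepatocytes, whereas C1q, properdin and the anaphylatoxin receptors are made mainly by macrophages and other myeloid cells.

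The genes described here are 34 listed complement components, regulators and receptors, taken by exact gene name from a table of 24318 genes. A row of that name was found for 33. The name C1s has no row; RefSeq gives it as a synonym of C1s1, whose row is described beside the others. Of the 33, 31 averaged 0.5 FPKM or more across the 6 libraries and were tested, and all 31 also reached 0.5 FPKM as a mean in each group, so none passed through its higher group alone. Cd46 and Cfd did not pass. By background knowledge 22 of the 34 were classed as mainly hepatocyte-made, 7 as mainly myeloid-made and 5 as made by other or by many cell types.

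RNA came from whole liver of C57BL/6 mice that all carried the genotype VEcadCreERT2/TAK1flox/flox, in which the kinase TAK1 (gene Map3k7) can be deleted by a Cre recombinase under the endothelial VE-cadherin promoter. The 3 control livers came from mice labelled as treated with none, and the 3 knockout livers from mice treated with tamoxifen, which activates the recombinase. Deletion and tamoxifen therefore cannot be told apart. The labels give no age, sex or time after tamoxifen, and nothing says whether a library is 1 animal, and a p-value here sets a difference against the spread of these libraries, which may be technical.

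Knockout livers held more RNA of many complement genes and less of a few. C3, C4a, C4b, C2, factor B, properdin, all 3 C1q chains, clusterin, Masp1 and both anaphylatoxin receptors were higher. The C8 gamma chain, the lectins' protease Masp2, the lectin Mbl2 and the cell-surface regulators Cd55 and Cd59a were lower. In counts, 13 of the 31 tested were higher and 5 lower (limma, Benjamini-Hochberg adjusted p under 0.05), or 58.1% called. Over all 11842 genes tested 27.0% were called, with 1669 genes (14.1%) higher and 1534 lower. The share of the 31 called lower was near that of all genes. The groups did not overlap for 21 of the 31, against 43.5% of all genes tested. The median log2 fold change of the 31 was 0.29, and that of all genes tested -0.00071.

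Values are FPKM, fragments per kilobase of transcript, scaled for the size of the library, so that levels of different genes can be compared per length. Folds are ratios of group means. Log2 fold changes are knockout against control on the log2(FPKM + 0.5) scale with their standard error, and understate changes of low genes. Means are given ± SD with n = 3 libraries. No read counts are given, so the depth behind a value is unknown. Map3k7 measured 8.50, 9.02 and 9.14 FPKM in the controls against 9.28, 9.31 and 7.35 FPKM in the knockouts (log2 fold change -0.045 ± 0.16, limma adjusted p = 0.868); whole liver holds many cells outside the endothelium, and this value is therefore no check of the labels. Of the marker lists, 10 of 10 neutrophil, 8 of 9 monocyte, 9 of 13 macrophage and Kupffer cell, 8 of 10 stellate cell and fibroblast and 5 of 8 lymphocyte genes were called higher and none lower. Several of these, such as Camp, Ltf and Chil3, averaged under 0.5 FPKM in the controls and passed the filter only through the knockouts. Of 11 endothelial markers 7 were lower and none higher, and of 11 hepatocyte markers 3 were lower and 1 higher. Control 3 had the highest summed level of macrophage markers among controls (1476 FPKM, against 784 and 787). In whole tissue, a change in the number of cells of a type and a change in RNA per cell cannot be told apart.

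**Figure D1:**
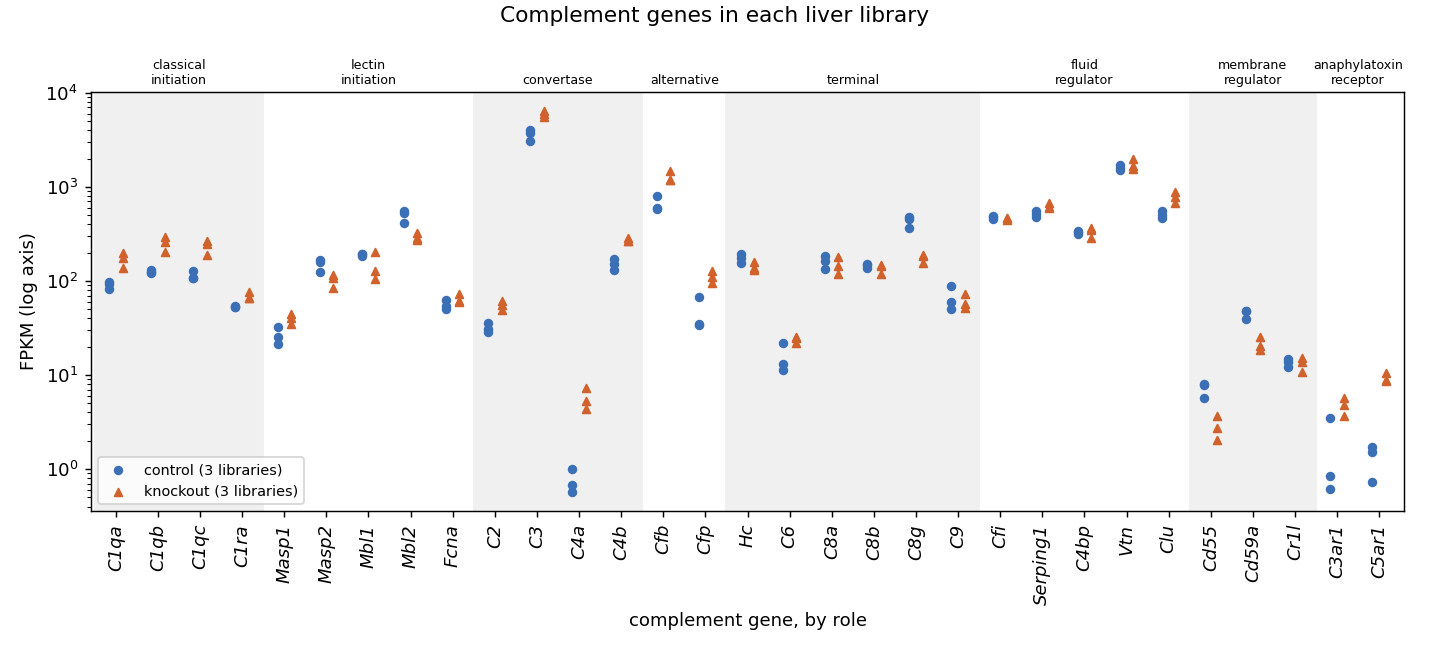
FPKM on a log axis of the 31 tested complement genes, arranged by role, with 1 point per library (circles, control; triangles, knockout). C3 is the most abundant in every library and C4a, C3ar1 and C5ar1 are among the least, with controls at 0.567 to 1.01 FPKM for C4a.

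C3 is cleaved by every pathway, and its larger fragment marks targets for uptake. It measured 3069.6, 3746 and 4041 FPKM in the controls against 5881, 5521 and 6457 FPKM in the knockouts. No control library reached the lowest knockout library, and the mean was 1.64 times higher (log2 fold change 0.72 ± 0.19, limma adjusted p = 0.0205). The call was lost without control 1 (0.61, adjusted p = 0.0822), control 2 (0.75, adjusted p = 0.0728), knockout 1 (0.73, adjusted p = 0.0623) or knockout 3 (0.66, adjusted p = 0.0647), and, with all libraries, when genes of any low level were kept (adjusted p = 0.0772), while C3 was higher under each of the 18 alternatives run, with log2 fold changes of 0.60 to 0.81. C3 made up 32.6, 35.2 and 37.4% of the summed FPKM of the 33 genes in control and 44.3, 42.5 and 43.3% in knockout libraries. Its share was larger in each knockout library than in any control. The RefSeq sequence around the C3 start site is shown because C3 carries the largest part of this RNA. It spans 250 bases before to 50 bases after the start, 5′ to 3′ (GRCm38.p6, chr17:57228087-57228386, minus strand), and capitals mark its match to the C/EBP motif, bases -45 to -38 from the start site.
C3: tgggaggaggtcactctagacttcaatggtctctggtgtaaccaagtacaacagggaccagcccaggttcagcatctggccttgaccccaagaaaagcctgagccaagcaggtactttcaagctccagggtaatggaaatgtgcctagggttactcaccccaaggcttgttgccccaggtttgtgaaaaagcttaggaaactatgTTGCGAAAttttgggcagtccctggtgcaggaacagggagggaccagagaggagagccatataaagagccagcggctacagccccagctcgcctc

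C4b encodes the complement C4 protein that joins C2 in the classical and lectin convertase. It measured 131, 151 and 172 FPKM in the controls against 265, 284 and 264 FPKM in the knockouts. The groups stood apart, with a mean 1.79 times higher (log2 fold change 0.85 ± 0.14, limma adjusted p = 0.00251). C2, the protease of that convertase, measured 28.8, 30.7 and 35.6 FPKM in the controls against 49.5, 61.8 and 55.6 FPKM in the knockouts. It too was higher in every knockout library, 1.76 times in the mean (log2 fold change 0.80 ± 0.15, limma adjusted p = 0.00388). C4a, a near copy of C4b that RefSeq annotates as a transcribed pseudogene and that is known in mice as sex-limited protein, measured 0.567, 1.01 and 0.672 FPKM in the controls against 5.35, 7.35 and 4.40 FPKM in the knockouts. It had the largest rise of the 4 (log2 fold change 2.30 ± 0.26, limma adjusted p = 4.19e-04), at a level far below C4b. C4a was 0.432, 0.665 and 0.390% of the summed C4a and C4b level in control and 1.98, 2.52 and 1.64% in knockout libraries. Reads of the copies can be shared or misassigned, so the value of C4a is uncertain.

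Factor B, from Cfb, is the protease of the alternative convertase. It measured 591, 582 and 794 FPKM in the controls against 1196, 1196 and 1466 FPKM in the knockouts. Knockout libraries lay above all controls, with a mean 1.96 times higher (log2 fold change 0.98 ± 0.18, limma adjusted p = 0.0036), and Cfb was the third most abundant of the 33 genes in both groups, after C3 and Vtn. Cfb lies next to C2 on chromosome 17 with no protein-coding gene between them in RefSeq. The ratio of Cfb to C2 was 20.6, 18.9 and 22.3 in control and 24.1, 19.3 and 26.4 in knockout libraries, so the groups overlapped in this ratio. Properdin, from Cfp, stabilizes the alternative convertase and is released by myeloid cells. It measured 34.6, 34.3 and 67.9 FPKM in the controls against 95.1, 128 and 109 FPKM in the knockouts, highest among controls in control 3, and rose 2.43 times in the mean (log2 fold change 1.34 ± 0.26, limma adjusted p = 0.00478). Without control 3 the log2 fold change of Cfp was 1.66. Factor D, from Cfd, cleaves factor B and is made mainly by adipocytes in mice. It was listed at 0, 0.583 and 0.519 FPKM in control and at 0 in every knockout library, and was not tested. The adipocyte markers Adipoq, Lep, Retn and Cidea were at 0 in all 6 libraries, and neither of the 2 adipocyte markers that could be tested was called.

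C1q is built from equal numbers of the chains encoded by C1qa, C1qb and C1qc, and recognises antibody and dying cells. C1qa measured 92.6, 82.3 and 98.2 FPKM in the controls against 137, 197 and 176 FPKM in the knockouts. C1qb measured 123, 120.2 and 129.5 FPKM in the controls against 202, 296 and 258 FPKM in the knockouts. C1qc measured 107, 106 and 127 FPKM in the controls against 190.5, 267 and 248 FPKM in the knockouts. For each chain every knockout library was above every control, with knockout 1 lowest and knockout 2 highest of the knockouts. The means were 1.87, 2.03 and 2.08 times higher. The log2 fold changes were 0.89 ± 0.16, 1.0 ± 0.16 and 1.04 ± 0.16, with limma adjusted p = 0.00383, 0.00206 and 0.00186. All 3 calls held under each of the 18 alternatives. C1qa made up 28.7, 26.7 and 27.7% of the summed C1q level in control and 25.9, 25.9 and 25.8% in knockout libraries. This share was smaller in each knockout library than in any control, by a small margin. The 3 chains kept the same order per length in all 6 libraries, with C1qa lowest, C1qc next and C1qb highest in each.

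The summed level of macrophage and Kupffer cell markers, like that of C1q, was higher in each knockout library than in any control. The markers summed to 784 to 1476 FPKM in the controls against 2117 to 2363 FPKM in the knockouts, with no marker at 0 in any library. In control 3 the markers summed to 1476 FPKM, against 784 and 787 FPKM in controls 1 and 2. Summed C1q was 355 FPKM in control 3, against 322 and 309 FPKM in controls 1 and 2. Per 100 FPKM of those markers, summed C1q was 41.1, 39.2 and 24.0 FPKM in the controls against 25.0, 33.2 and 28.8 FPKM in the knockouts, and the groups overlapped. Of the 13, Clec4f, Timd4, Marco and Cd163 were not called. Clec4f, a lectin restricted to these resident macrophages, had a log2 fold change of 0.18 ± 0.16 (limma adjusted p = 0.456). Timd4 had one of 0.56 ± 0.30 (limma adjusted p = 0.192). The other 9 markers were called higher, among them Cd5l (1.14 ± 0.23, limma adjusted p = 0.00641) and Folr2 (0.70 ± 0.17, limma adjusted p = 0.0147). These named markers were chosen after their values were seen. The part of cell number in the C1q difference was not tested. C1qb, C1qc and C1qa lie side by side on chromosome 4 with no protein-coding gene between them in RefSeq. Promoter sequence was matched for C1qb (chr4:136886151-136886450, minus strand) and C1qc (chr4:136892865-136893164, minus strand), both GRCm38.p6 from RefSeq, 5′ to 3′, and is shown because these neighbours moved together. Capitals mark matches to the core motif GAGGAA of the myeloid factor PU.1, or TTCCTC where it lies on the other strand. They fall at bases -30 to -25 in C1qb and -193 to -188 in C1qc.
C1qb: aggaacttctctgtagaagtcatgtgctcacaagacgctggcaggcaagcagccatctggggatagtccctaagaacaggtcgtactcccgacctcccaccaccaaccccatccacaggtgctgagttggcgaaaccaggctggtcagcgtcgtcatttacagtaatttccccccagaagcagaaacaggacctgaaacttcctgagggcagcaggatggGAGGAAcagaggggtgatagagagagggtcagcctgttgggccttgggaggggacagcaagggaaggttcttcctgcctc
C1qc: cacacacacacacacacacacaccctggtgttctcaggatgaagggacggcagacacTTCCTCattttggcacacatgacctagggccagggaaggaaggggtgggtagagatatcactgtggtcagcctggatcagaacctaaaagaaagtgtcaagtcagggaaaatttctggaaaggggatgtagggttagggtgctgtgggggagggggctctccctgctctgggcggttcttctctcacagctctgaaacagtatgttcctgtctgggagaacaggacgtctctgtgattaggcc

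C1r and C1s are the proteases carried by C1q and come from hepatocytes and fibroblasts. C1ra measured 52.5, 52.4 and 53.8 FPKM in the controls against 65.5, 65.2 and 76.8 FPKM in the knockouts. Knockout libraries were all above the controls, yet the difference missed the threshold (log2 fold change 0.38 ± 0.13, limma adjusted p = 0.0544); with library weights it passed (adjusted p = 0.0394). C1s1, its neighbour on chromosome 6, measured 101, 115 and 113 FPKM in the controls against 123, 138 and 123 FPKM in the knockouts (log2 fold change 0.22 ± 0.13, limma adjusted p = 0.238). Neither protease gene passed, against all 3 C1q chains, but that contrast was not itself tested.

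**Figure D2:**
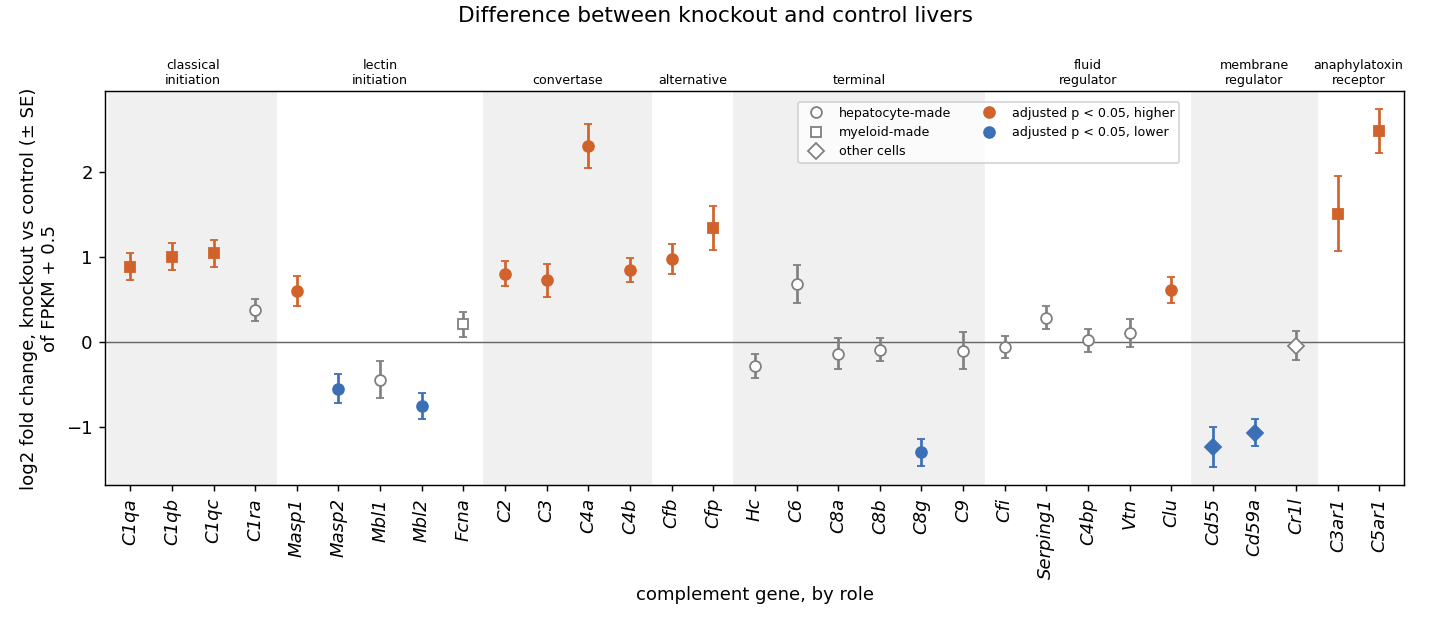
Log2 fold change of knockout against control with its standard error for the 31 tested complement genes, by role; marker shape gives the main source cell and filled points passed an adjusted p under 0.05. The points run from -1.29 for C8g to 2.48 for C5ar1.

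The lectin pathway starts when a mannose-binding lectin or ficolin binds sugars on a surface. Mbl2, a hepatocyte-made lectin, measured 522, 551 and 417 FPKM in the controls against 287, 275 and 319.7 FPKM in the knockouts. Every knockout library was below every control, at 0.591 times the control mean (log2 fold change -0.75 ± 0.15, limma adjusted p = 0.00649). Mbl1, its paralog, measured 191, 186 and 192 FPKM in the controls against 128, 105 and 203 FPKM in the knockouts. Knockout 3 was above all controls and the other knockouts below them, and the difference missed the threshold (log2 fold change -0.44 ± 0.22, limma adjusted p = 0.166). Mbl1 did pass without knockout 3 (log2 fold change -0.71, adjusted p = 0.0125) and with libraries rescaled to the same total (adjusted p = 0.0408). Fcna, a ficolin made by macrophages in mice, measured 54.4, 62.3 and 50.3 FPKM in the controls against 59.7, 73.1 and 60.7 FPKM in the knockouts, with overlapping groups (log2 fold change 0.21 ± 0.14, limma adjusted p = 0.32). It was the only one of the 7 myeloid-made genes that did not pass.

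Masp2 encodes the protease that cleaves C4 and C2 for these lectins, and Masp1 the protease that activates it. Masp2 measured 166, 157 and 123 FPKM in the controls against 83.6, 116 and 106 FPKM in the knockouts. The groups stood apart, with knockouts lower (log2 fold change -0.54 ± 0.17, limma adjusted p = 0.0431). Masp1 measured 25.3, 21.5 and 32.2 FPKM in the controls against 40.3, 44.7 and 34.5 FPKM in the knockouts, with knockouts higher (log2 fold change 0.60 ± 0.18, limma adjusted p = 0.0339). The 2 proteases thus moved in opposite directions, and the ratio of Masp2 to Masp1 was 6.57, 7.31 and 3.82 in control and 2.08, 2.59 and 3.08 in knockout libraries. Neither call was firm. That of Masp2 was lost without control 1 (-0.46, adjusted p = 0.147), control 2 (-0.50, adjusted p = 0.141), knockout 1 (-0.41, adjusted p = 0.137) or knockout 3 (-0.58, adjusted p = 0.0727), and also without a mean-variance trend (0.0911) or without the filter (0.0614), both adjusted p. That of Masp1 was lost without control 1 (0.58, adjusted p = 0.0984), control 2 (0.47, adjusted p = 0.133), knockout 1 (0.59, adjusted p = 0.087) or knockout 2 (0.51, adjusted p = 0.0957), and also without the trend (0.0706) or with rescaled totals (0.118), both adjusted p.

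The terminal proteins build the membrane pore: C5 (gene Hc) is cleaved, then C6, C8 and C9 join, with C8 made of an alpha, a beta and a gamma chain from C8a, C8b and C8g. C8g measured 459, 476 and 362 FPKM in the controls against 184, 154 and 191 FPKM in the knockouts. It was lower in every knockout library, at 0.407 times the control mean (log2 fold change -1.29 ± 0.16, limma adjusted p = 5.83e-04), and held under each of the 18 alternatives. C8a measured 135, 185 and 165 FPKM in the controls against 179, 120.0 and 144 FPKM in the knockouts (log2 fold change -0.13 ± 0.18, limma adjusted p = 0.63). C8b measured 136, 150.2 and 147 FPKM in the controls against 147, 118 and 145 FPKM in the knockouts (log2 fold change -0.086 ± 0.14, limma adjusted p = 0.684). The groups overlapped for both. C8g stood at 3.39, 2.84 and 2.32 times the mean of C8a and C8b in control and at 1.13, 1.30 and 1.32 times in knockout libraries. The excess of gamma-chain RNA was thus smaller in each knockout library than in any control, though it stayed above 1. C8a and C8b are neighbours on chromosome 4, and C8g is on chromosome 2. The gamma chain, unlike the others, belongs to the lipocalin family. Its promoter sequence (GRCm38.p6, RefSeq, chr2:25501670-25501969, minus strand, 5′ to 3′), shown because C8g fell while C8a and C8b did not pass the test, held none of the 6 motifs searched, so no base is in capitals.
C8g: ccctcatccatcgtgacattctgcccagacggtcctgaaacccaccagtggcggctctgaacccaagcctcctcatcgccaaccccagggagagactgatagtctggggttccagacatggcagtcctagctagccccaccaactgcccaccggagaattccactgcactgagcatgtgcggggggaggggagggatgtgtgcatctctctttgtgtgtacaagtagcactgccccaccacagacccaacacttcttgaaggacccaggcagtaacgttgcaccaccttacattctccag

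The other terminal genes did not pass. Hc measured 155, 177 and 191 FPKM in the controls against 159, 139 and 132 FPKM in the knockouts, with an overlap of 1 knockout library (log2 fold change -0.28 ± 0.14, limma adjusted p = 0.166). C9, which polymerises into the pore wall, measured 50.4, 59.7 and 89.2 FPKM in the controls against 72.4, 52.2 and 57.6 FPKM in the knockouts (log2 fold change -0.10 ± 0.22, limma adjusted p = 0.769), and control 3 was the highest of all libraries. C6 measured 11.3, 13.2 and 21.7 FPKM in the controls against 24.9, 25.6 and 21.9 FPKM in the knockouts. Its knockout libraries lay above the controls by a narrow gap from control 3, and the difference just missed the threshold (log2 fold change 0.68 ± 0.23, limma adjusted p = 0.0514). C6 passed without control 3 (log2 fold change 0.95, adjusted p = 0.00539) and under 5 of the alternatives with all 6 libraries. The ratio of C3 to Hc, the gene of C5, was 19.7, 21.2 and 21.2 in control and 37.0, 39.8 and 48.8 in knockout libraries, without overlap.

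**Figure D3:**
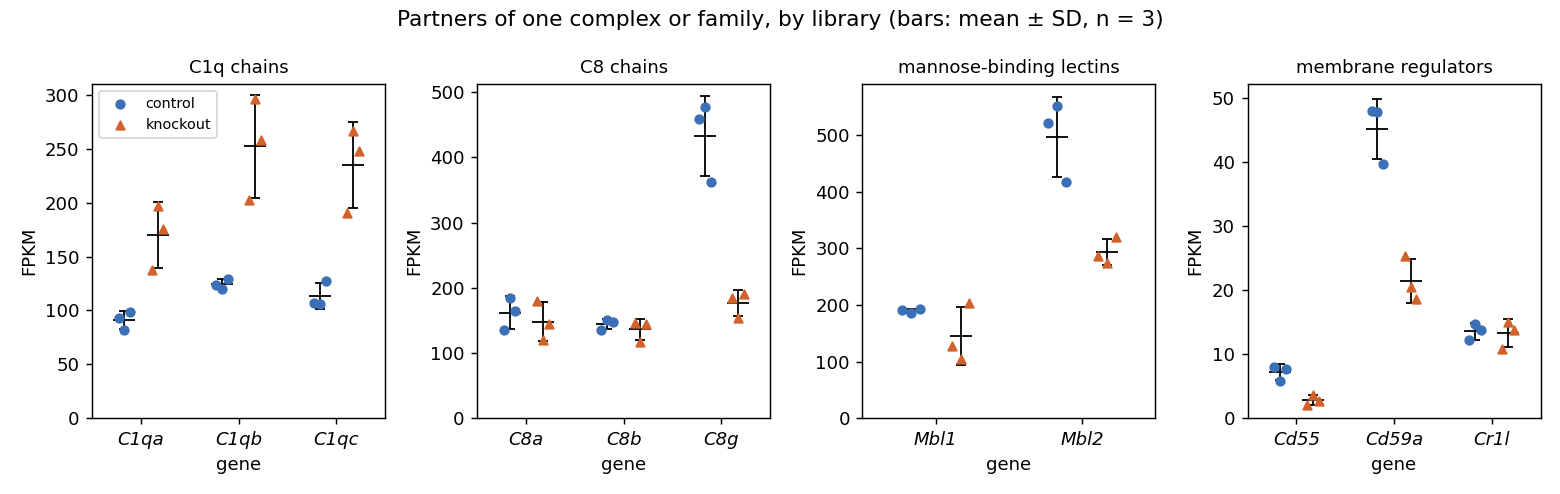
FPKM by library of the C1q chains, C8 chains, mannose-binding lectins and membrane regulators (circles, control; triangles, knockout; bars, mean ± SD, n = 3). All C1q chains were higher in knockouts, C8g but neither C8a nor C8b was past the threshold, and Cr1l showed no separation while Cd55 and Cd59a lay lower.

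Of the 5 soluble regulators on the list, 1 was called higher and 4 did not pass (20% called, against 27.0% of all genes tested). Cfhr2, a plasma regulator outside the list, and the carboxypeptidase genes Cpb2 and Cpn1 were called and are described below. Clu, the chaperone clusterin that keeps terminal complexes out of membranes, measured 463, 558 and 506 FPKM in the controls against 681, 777 and 879 FPKM in the knockouts and was 1.53 times higher in the mean (log2 fold change 0.61 ± 0.15, limma adjusted p = 0.0176). The call did not hold without control 1 (0.54, adjusted p = 0.0726) or knockout 3 (0.52, adjusted p = 0.0563). Serping1, the C1 inhibitor, measured 474, 551 and 517 FPKM in the controls against 593, 615 and 673 FPKM in the knockouts; the groups did not overlap but the difference missed the threshold (log2 fold change 0.29 ± 0.14, limma adjusted p = 0.153). Cfi, the protease that inactivates C3b and C4b, went from 475 ± 19.3 to 457 ± 10.6 FPKM (log2 fold change -0.054 ± 0.13, limma adjusted p = 0.789), and C4bp, its cofactor for C4b, went from 328 ± 11.5 to 334 ± 39.9 FPKM (log2 fold change 0.021 ± 0.14, limma adjusted p = 0.93). Vtn, or vitronectin, which blocks the terminal complex, went from 1600.2 ± 109.9 to 1733 ± 231 FPKM (log2 fold change 0.11 ± 0.16, limma adjusted p = 0.668). For these 3 the groups overlapped and their folds of 0.963, 1.02 and 1.08 were within the spread between libraries. So C3, C4b, C2 and Cfb passed the test upward. Of the 5 listed soluble regulators, Clu passed it upward too, and Cfi, C4bp, Serping1 and Vtn did not pass. Any difference between the sets was not tested.

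Membrane regulators protect the cells that carry them. Cd55, decay-accelerating factor, which takes convertases apart, measured 8.04, 5.75 and 7.75 FPKM in the controls against 2.05, 3.63 and 2.72 FPKM in the knockouts. Every knockout library was below every control, at 0.390 times the control mean (log2 fold change -1.23 ± 0.24, limma adjusted p = 0.00478). Cd59a, which blocks the terminal pore, measured 48.0, 47.8 and 39.7 FPKM in the controls against 25.3, 20.6 and 18.6 FPKM in the knockouts. It too was lower in every knockout library, at 0.475 times (log2 fold change -1.06 ± 0.16, limma adjusted p = 0.0016), and both calls held under each of the 18 alternatives. Cr1l, known as Crry, the broad convertase inhibitor of rodents, measured 12.1, 14.7 and 13.8 FPKM in the controls against 10.8, 15.1 and 13.8 FPKM in the knockouts, with overlapping groups (log2 fold change -0.04 ± 0.17, limma adjusted p = 0.889). Cd46, which in mice is largely restricted to testis, was listed at 0 in every library. Beside Cd55 and Cd59a, 7 of 11 endothelial markers were lower, and the summed level of the list was 146 to 223 FPKM in the controls against 60.2 to 70.2 FPKM in the knockouts. Much of that drop came from Clec4g, a lectin of sinusoidal endothelium (44.4, 63.8 and 56.5 FPKM in the controls, 0.381 FPKM in knockout 1 and listed at 0 in knockouts 2 and 3), and Dnase1l3 (from 23.1 ± 6.31 to 0.704 ± 0.115 FPKM). The other 9 summed to 80.3 to 136 FPKM against 59.5 to 69.4 FPKM. Cdh5, the VE-cadherin gene, and Stab2 had log2 fold changes of 0.28 ± 0.26 and 0.32 ± 0.26, and Pecam1 and Eng of -0.21 ± 0.20 and -0.39 ± 0.16; none of these 4 was called, and all 6 were chosen after their values were seen. No marker was at 0 in every library. The part of endothelial cells in the lower Cd55 and Cd59a was not tested, and Cd59a shares sequence with Cd59b, so their reads may be split uncertainly.

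C3ar1 and C5ar1 encode the receptors of the anaphylatoxins C3a and C5a on myeloid cells. C5ar1 measured 0.729, 1.70 and 1.51 FPKM in the controls against 8.73, 8.76 and 10.5 FPKM in the knockouts. All knockout libraries were far above the controls, 7.09 times in the mean (log2 fold change 2.48 ± 0.25, limma adjusted p = 2.63e-04). C3ar1 measured 0.611, 0.846 and 3.47 FPKM in the controls against 3.70, 4.79 and 5.64 FPKM in the knockouts. Control 3 lay just below knockout 1, and the control mean of 1.64 FPKM was 0.728 FPKM without control 3. The difference passed with all libraries (log2 fold change 1.51 ± 0.44, limma adjusted p = 0.0307) and without control 3 (2.07, adjusted p = 0.00169). It did not pass without control 1 (1.15, adjusted p = 0.104), control 2 (1.29, adjusted p = 0.107), knockout 1 (1.65, adjusted p = 0.0565), knockout 2 (1.49, adjusted p = 0.0775) or knockout 3 (1.38, adjusted p = 0.0935), nor without the filter (adjusted p = 0.0609). Beside these receptors, the summed level of neutrophil markers was 36.6 to 73.0 FPKM in the controls against 1722 to 1807 FPKM in the knockouts. That of monocyte markers was 301 to 395 FPKM in the controls against 735 to 762 FPKM in the knockouts, but most of it was Fn1, or fibronectin, which hepatocytes also make and whose mean was 1.59 times higher. The other 8 monocyte markers summed to 26.6 to 30.8 FPKM against 241 to 267 FPKM. No marker of either list was at 0 in every library, and their part was not tested.

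By source cell, the called myeloid-made genes all rose, while the called hepatocyte-made genes went in both directions. Of 7 myeloid-made genes 6 were higher and none lower, with a median log2 fold change of 1.04. Of 21 hepatocyte-made genes tested 7 were higher, 3 lower and 11 did not pass (47.6% called), with a median of 0.11. Over all 11842 genes tested 27.0% were called, with 1669 (14.1%) higher and 1534 lower. The share called lower in the hepatocyte-made class was thus near that of all genes. Its called falls were C8g, Mbl2 and Masp2, and its called rises were C2, C3, C4a, C4b, Cfb, Masp1 and Clu. Without control 1 the hepatocyte-made genes called higher numbered 4. Some of them, such as C3, C4b, Clu, C1ra and Serping1, are also expressed by fibroblasts or macrophages; the summed level of stellate cell and fibroblast markers was 179 to 234 FPKM in the controls against 385 to 481 FPKM in the knockouts (43.3 to 77.6 FPKM against 184 to 270.2 FPKM without Dcn, its most abundant member), and that of hepatocyte markers 22767 to 31204 FPKM in the controls against 24345 to 29170.0 FPKM in the knockouts. The hepatocyte markers overlapped between groups, and none was at 0 in any library. The part of these cell types in the hepatocyte-made genes was not tested. The summed FPKM of the 21 rows of this class was 8941, 10174 and 10265 in control and 12525, 11965 and 14027 in knockout libraries. Without C3, the listed genes summed to 6352, 6905 and 6763 FPKM in the controls against 7379, 7459 and 8473 FPKM in the knockouts, without overlap. Library totals without Alb were unequal too, at 479205, 489827 and 440732 FPKM across the controls, against 488012, 487121 and 559489 FPKM across the knockouts. With C3, the listed genes made up 1.97, 2.17 and 2.45% of these totals in the controls against 2.72, 2.66 and 2.67% in the knockouts. The sums without C3 were not divided by the totals, so their gap does not show a larger share. Rescaled to the same total, the libraries gave 12 complement genes higher and 6 lower, and the calls over all genes went from 1669 higher and 1534 lower to 1354 and 2076.

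Motifs of 6 factors known to act at liver or myeloid promoters were searched on both strands of the 300 bases around the most upstream RefSeq start site, for the 25 genes matched there (C1s1 included) and for all 27025 genes with such a sequence. The C/EBP motif TTGCNNAA was in 4 of the 25 (C1ra, C1s1, C3 and C9) and in 10.7% of all. The STAT motif TTCNNNGAA was in 4 (C1ra, C8a, Masp2 and Vtn) and in 8.42%. The HNF1 core GTTAAT was in 8 (C1ra, C4bp, C8a, C8b, Cd55, Cfp, Hc and Vtn) and in 7.22%. The PU.1 core GAGGAA was in 6 (C1qb, C1qc, C1ra, Cd59a, Cfp and Fcna) and in 28.3%. The NF-kB motif GGANTTTCC and the HNF4 motif CAAAGTCCA were in none of the 25 and in 1.23% and 0.474% of all. Of the 8 genes with an HNF1 match, Cd55 fell, Cfp rose and 6 did not pass. Of the 6 with a PU.1 match, C1qb, C1qc and Cfp rose, Cd59a fell, and C1ra and Fcna did not pass.

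Complement genes outside the list were read from a list of 35 further receptors, regulators and relatives, of which 30 have a row and 23 were tested. Of these 10 were higher and 3 lower (56.5% called), with a median log2 fold change of 0.19. Over all 11842 genes tested 27.0% were called, with 1669 (14.1%) higher and 1534 lower. The share of the 23 called lower was thus near that of all genes. The 10 include Itgax and C7, with control means of 0.316 and 0.278 FPKM. These 2 passed the filter of 0.5 FPKM only through the knockouts, so their calls depend on that selection. The receptors for C3 fragments on phagocytes led the rises. Itgam, the alpha chain of complement receptor 3, measured 0.653, 0.484 and 3.78 FPKM in the controls against 17.4, 12.9 and 11.8 FPKM in the knockouts (log2 fold change 3.09 ± 0.49, limma adjusted p = 0.00197), and its control mean of 1.64 FPKM was 0.568 FPKM without control 3. Itgb2, the beta chain it shares with complement receptor 4, measured 6.25, 8.92 and 15.0 FPKM in the controls against 37.6, 38.7 and 40.6 FPKM in the knockouts (log2 fold change 1.99 ± 0.26, limma adjusted p = 8.40e-04). Itgax, the alpha chain of receptor 4, rose from 0.316 ± 0.162 to 2.01 ± 0.646 FPKM (log2 fold change 1.60 ± 0.31, limma adjusted p = 0.00534). Cd93, once described as a C1q receptor and present on endothelium and myeloid cells, rose from 1.93 ± 0.717 to 6.03 ± 0.340 FPKM (log2 fold change 1.47 ± 0.26, limma adjusted p = 0.00322). Like C5ar1, these genes had knockout libraries that were all above the controls.

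Apcs, serum amyloid P, a hepatocyte-made pentraxin that binds C1q, rose from 324 ± 19.7 to 899.7 ± 199.6 FPKM (log2 fold change 1.45 ± 0.18, limma adjusted p = 6.45e-04). Crp, the related C-reactive protein, measured 426, 349 and 329 FPKM in the controls against 411, 334 and 440.0 FPKM in the knockouts, with overlapping groups (log2 fold change 0.10 ± 0.16, limma adjusted p = 0.69). Thbd, thrombomodulin, rose from 1.82 ± 0.874 to 4.86 ± 0.969 FPKM (log2 fold change 1.26 ± 0.30, limma adjusted p = 0.0137). The call for Thbd went without knockout 3 (1.14, adjusted p = 0.0515). C7, the terminal protein between C6 and C8, measured 0.166, 0.516 and 0.153 FPKM in the controls against 1.43, 1.77 and 0.720 FPKM in the knockouts (log2 fold change 1.20 ± 0.35, limma adjusted p = 0.0322). It is made largely outside hepatocytes, and it passed the filter only through the knockouts. The call did not hold for C7 without control 1 (1.10, adjusted p = 0.099), control 3 (1.09, adjusted p = 0.076), knockout 1 (1.13, adjusted p = 0.0892) or knockout 2 (1.01, adjusted p = 0.0977), and its log2 fold change was 1.94 with a pseudocount of 0.1. Cfhr2, a plasma complement regulator of the liver with close relatives whose reads may be shared, fell from 172 ± 22.6 to 89.3 ± 8.63 FPKM (log2 fold change -0.94 ± 0.15, limma adjusted p = 0.00195).

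Vsig4, Cpb2, Cpn1 and Crp were chosen after their values were seen. Vsig4, the Kupffer cell receptor for C3b and iC3b, measured 58.8, 54.5 and 73.2 FPKM in the controls against 92.8, 134 and 96.1 FPKM in the knockouts (log2 fold change 0.78 ± 0.18, limma adjusted p = 0.012), and did not pass without control 2 (0.69, adjusted p = 0.0574). Carboxypeptidases that inactivate anaphylatoxins moved apart. Cpb2, whose enzyme circulates as a zymogen, rose from 299 ± 7.84 to 553 ± 57.8 FPKM (log2 fold change 0.88 ± 0.14, limma adjusted p = 0.00178). Cpn1, the catalytic chain of carboxypeptidase N, fell from 159.5 ± 18.6 to 107 ± 12.9 FPKM (log2 fold change -0.57 ± 0.15, limma adjusted p = 0.0195), a call lost without control 1 (-0.52, adjusted p = 0.0756), control 2 (-0.52, adjusted p = 0.0847) or knockout 1 (-0.50, adjusted p = 0.0683) and without the trend (adjusted p = 0.0537).

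**Figure D4:**
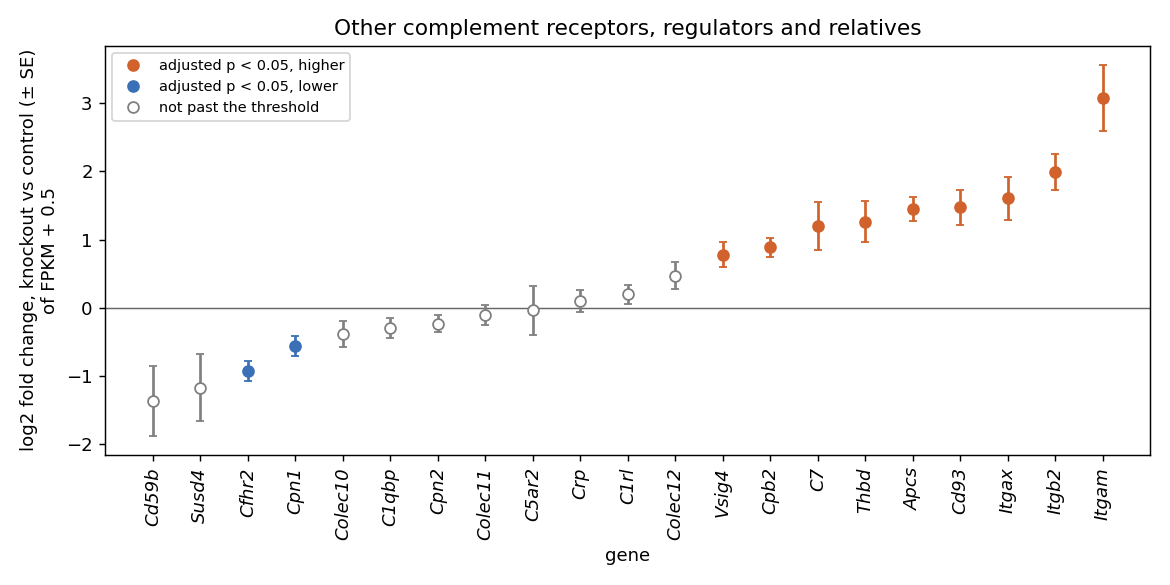
Log2 fold change of knockout against control with its standard error for 21 of the 23 tested complement genes outside the list, in order of size; filled points passed an adjusted p under 0.05. Values run from -1.37 for Cd59b, which did not pass, to 3.09 for Itgam.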

How the data were processed

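Liver RNA was made into TruSeq libraries and read from both ends, per the labels' protocols. Trimmomatic 0.33, TopHat2 2.1.0, Cuffdiff 2.2.1, Cuffnorm 2.2.1 and build mm9 are named in the submitters' processing notes. The annotation, like the depth, was not given in the sources used here. FPKM values were deposited by the authors with a column for each library and were used unchanged. The way they were scaled between libraries was not tested. If a library total was used, abundant genes can shift the rest. Rescaling by the median ratio hardly moved the calls, to 1671 genes higher and 1522 lower from 1669 and 1534. Rescaling to the same total gave 1354 and 2076. Alb, listed at 0 in every control and at 55705 to 73306 FPKM in knockouts, was left out as a failed estimate.

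Groups were compared with limma 3.58.1 under R 4.3.3 (lmFit, eBayes with trend, two-sided) on log2(FPKM + 0.5). Genes averaging under 0.5 FPKM were dropped, and p-values were adjusted by Benjamini-Hochberg over the remaining 11842. The fit was tested on simulated data. No 2 libraries had a nonzero value in common. The members and lists were chosen with earlier results of these data known. All members were named, and of the other complement genes the 8 with the largest called change. Another 18 settings were run: pseudocounts, filters, scalings, variance models, library weights, a replicate block, Alb kept, each library left out in turn and, chosen after seeing the data, removal of genes at 0 in any library. Promoters and neighbours are from RefSeq on GRCm38.p6, which is not the authors' build, and were matched by symbol. Results for 2 further complement genes are not reported here. Figures were drawn with matplotlib 3.10.9.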

Additional observations from a re-analysis of the deposited data

How the results depend on the processing

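Of 558 member values under the alternatives, 509 kept their direction and side of the threshold, 28 lost the call, 9 gained it and 12 changed sign, none of the last with an adjusted p under 0.05. Members called higher numbered 9 to 15 and lower 4 to 6 over all alternatives. Leaving out 1 library at a time gave 1166 to 1629 genes higher and 935 to 1484 lower, 9 to 14 members higher and 4 to 5 lower, 4 to 8 hepatocyte-made members higher and 2 to 3 lower, 5 to 6 myeloid-made members higher, and 8 to 10 other complement genes higher and 2 to 4 lower; such fits have fewer samples. With totals rescaled the middle of all genes' log2 fold changes was -0.10, and C4bp (-0.10) and Vtn (-0.012) changed sign. C9 did with library weights (0.018). With 1 library left out at a time, log2 fold changes ran on both sides of 0 for C8a (-0.28 to 0.0063), C8b (-0.14 to 0.017), C9 (-0.28 to 0.13), C4bp (-0.044 to 0.12), Cr1l (-0.14 to 0.092) and Map3k7 (-0.10 to 0.062). The cause was not tested. Libraries share replicate numbers, but same-numbered libraries did not deviate together over all genes (correlations of deviations -0.01, -0.00012 and 0.0015). With 3 libraries per group, these values cannot show whether the numbers pair the libraries, since a pairing may affect only some genes. A replicate block gave 1575 genes higher and 1385 lower, and 11 members higher and 4 lower; C3, Masp1 and Masp2 were not called with it. With no read counts, the precision of low genes such as C4a and C3ar1 is unknown.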

Other observations

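Complement genes too low to be tested included Fcnb, a ficolin of neutrophils and monocytes, which was listed at 0 in all controls and at 0.912, 0.506 and 1.03 FPKM in knockout libraries. C1rb, the near copy of C1ra, was listed at 0, 0 and 0.389 FPKM in the controls against 0, 0.451 and 0.916 FPKM in the knockouts. Cr2, the receptor for C3d on B cells, was listed at 0 in all controls and at 0.333, 0 and 0.227 FPKM in knockout libraries. Ptx3, the long pentraxin, Csmd1 and Cd55b, the copy of Cd55, were listed at 0 in all 6 libraries.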
